A study of Mus musculus with 4 samples.

Results

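Cd52 and 7 further genes for surface proteins held by a glycosylphosphatidylinositol (GPI) anchor were followed in type 2 innate lymphoid cells (ILC2s) from the mouse colon. The 8 genes, Cd52, Cd24a, Ly6a, Ly6e, Thy1, Cd48, Nt5e and Cd55, were picked by symbol from the 27179 gene identifiers of the count table, with earlier results of these data known. Each of the 8 had exactly 1 row. Of these, 7 passed the filter on low counts and were among the 11841 genes tested, and Cd55 had no count in any library. The choice of genes drew on the diet difference itself, so that difference is given for them as a description and supports nothing by itself. Calls from fits over all genes are counted for them only beside the share of all genes called.

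ILC2s are lymphocytes of mucosal tissues that carry no rearranged antigen receptor and secrete IL-5 and IL-13. The cells were sorted from colons of C57BL/6J mice on a high-fiber diet (2 libraries) or a control diet (2 libraries), and each library came from 1 mouse. RNA was amplified with a kit for very small inputs before sequencing. The labels do not state the gates of the sort, how many cells were taken, which fiber was fed and for how long, or the age and sex of the mice.

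A GPI anchor is a glycolipid built on the membrane of the endoplasmic reticulum and attached to the C-terminus of a protein by the GPI transamidase, which removes a hydrophobic signal there. The finished protein sits in the outer leaflet of the cell membrane with no cytoplasmic tail. On lymphocytes such proteins serve as adhesion ligands, ectoenzymes and complement regulators, and several are used as sorting markers.

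The coding sequences of 3 of the genes are shown because they bear on how surely reads can be assigned. CD52 is one of the shortest surface proteins, Ly6a has near copies in its own gene cluster, and Cd24a has a near copy elsewhere in the annotation. The first 160 bases are given for Ly6a and the whole coding sequence for the other genes. The sequences are those of the GENCODE M21 transcripts on GRCm38, written 5′ to 3′, and capitals mark bases inside a stretch of 50 bases that also occurs in a transcript of another gene.
Cd52-201: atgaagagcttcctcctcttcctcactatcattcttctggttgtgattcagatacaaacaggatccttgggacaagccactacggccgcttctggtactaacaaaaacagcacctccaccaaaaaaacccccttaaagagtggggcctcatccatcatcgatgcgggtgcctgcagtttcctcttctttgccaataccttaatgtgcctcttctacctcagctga
Ly6a-201: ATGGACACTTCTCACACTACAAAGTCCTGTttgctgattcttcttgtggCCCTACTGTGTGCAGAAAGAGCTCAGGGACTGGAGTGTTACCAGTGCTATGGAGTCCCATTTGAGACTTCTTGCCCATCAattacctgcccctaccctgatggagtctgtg
Cd24a-201: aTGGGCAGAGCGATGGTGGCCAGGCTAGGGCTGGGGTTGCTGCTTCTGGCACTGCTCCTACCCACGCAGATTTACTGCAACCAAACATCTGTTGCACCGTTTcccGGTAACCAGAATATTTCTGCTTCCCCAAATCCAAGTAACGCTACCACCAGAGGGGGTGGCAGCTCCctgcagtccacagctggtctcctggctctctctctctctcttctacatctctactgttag
The Cd52 coding sequence has 225 bases and none in capitals. In Ly6a, 110 of the 160 bases shown are in capitals (179 of all 405 coding bases), and in Cd24a, 167 of 231. Over all annotated transcripts, 0 of 465 windows of 50 bases in Cd52 were shared with another gene, against 246 of 1297 in Ly6a, of which 195 were also in Ly6c1. In Cd24a, 69 of 1985 windows were shared, all with Gm6212. The genes Ly6e, Thy1, Cd48 and Nt5e shared no window. The values of Ly6a and Cd24a are therefore less certain than those of the others, since how reads with several matches were counted is not stated.

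Library totals were 29263068 and 20750263 counts on the high-fiber diet and 30406730 and 20253987 counts on the control diet. The first principal component held 45.8% of the variance and placed high-fiber library 2 (116) away from the other 3 libraries, which were all below 0 on it, down to -59.3. All 13 ILC2 marker genes were tested, with summed levels of 19719.2 and 18283.9 CPM (counts scaled to library size and composition) on the high-fiber diet and 17065.5 and 14688.1 CPM on the control diet. The cytokine gene Il5 alone made up 5889.3 and 3798.9 CPM of the high-fiber sums and 3042.8 and 2559.4 CPM of the control sums. The sums are therefore no measure of how pure the sorts were. The 8 genes together made up between 0.541% and 0.606% of a library's counts. Because these are sorted cells measured in bulk, fewer cells of a type and less RNA per cell cannot be told apart.

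The members differed widely in level. Per kilobase of the longest protein-coding transcript, Cd52 averaged 2179.3 CPM over the 4 libraries, Ly6e 1702.6, Ly6a 323.1, Cd48 88.8, Nt5e 72.8, Thy1 18.8 and Cd24a 2.59. Among the genes tested that have a transcript length, Cd52 stood at percentile 99.9 of this per-length level, Ly6e at 99.7 and Ly6a at 98.1. Thy1 stood at 68.4 and Cd24a at 29.3. The ranges over libraries of Cd52 and Ly6e overlapped, as did those of Cd48 and Nt5e, and the other neighbours in the order did not overlap. Per kilobase of all merged exons, Cd48 (70.6 or more in each library) was wholly above Nt5e (42.1 or less), so the order of that pair depends on the length used.

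The order of the leading pair differed between the diets. Per kilobase of transcript, Cd52 had 3144.5 and 3378.3 CPM in the high-fiber libraries and 1208.9 and 985.4 CPM in the control libraries. Ly6e had 1640.7 and 1569.2 CPM per kilobase in the high-fiber libraries and 1778.9 and 1821.5 CPM per kilobase in the control libraries. Cd52 was thus above Ly6e in both high-fiber libraries and below it in both control libraries. The same order was seen per kilobase of all merged exons, where Cd52 had 1361.6 and 1462.9 against 989.0 and 945.9 for Ly6e in the high-fiber libraries, and 523.5 and 426.7 against 1072.3 and 1098.0 in the control libraries. As a plain count ratio, which takes no account of length, Cd52 reached 43.2% and 48.5% of the Ly6e counts in the high-fiber libraries and 15.3% and 12.2% in the control libraries.

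**Figure D1:**
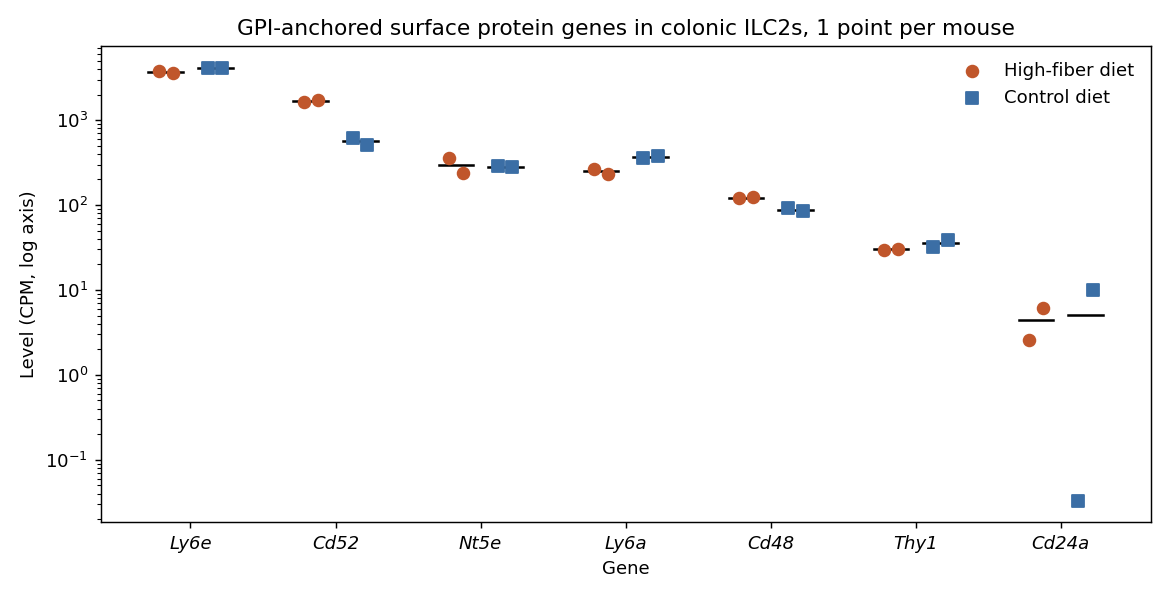
Level of each gene in CPM (log axis, not divided by length), with 1 point per mouse, high-fiber (circles) left of control (squares) and a bar at the group mean; Cd55, at 0 in all 4 libraries, is not drawn. Cd52 lies between 1616.3 and 1736.5 CPM in the high-fiber libraries and between 506.5 and 621.4 CPM in the control libraries, while the Cd24a points are spread over a wide range within the control diet.

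Cd52 and Cd24a encode very short, heavily glycosylated peptides. CD52 is a surface antigen of lymphocytes and the target of the antibody alemtuzumab in humans. Cd52 (NCBI gene 23833, GRCm38 chr4:134093538-134095073) had 46661 and 35384 counts in the high-fiber libraries and 18767 and 10630 counts in the control libraries, or 1616.3 and 1736.5 CPM against 621.4 and 506.5 CPM. The groups did not overlap, and the lower high-fiber library was 2.6 times the higher control library. The high-fiber libraries differed from each other by a factor of 1.07 and the control libraries by 1.23. Means were 1676.4 ± 85.0 CPM on the high-fiber diet and 563.9 ± 81.3 CPM on the control diet (SD, n = 2 each), and the log2 fold change was 1.57 ± 0.22 (SE), a fold of 2.97.

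CD24, also called heat-stable antigen, is a mucin-like ligand found on many immature and epithelial cells. Cd24a (gene 12484, chr10:43579169-43584265) was near the bottom of the members, with 75 and 126 counts in the high-fiber libraries and 1 and 210 counts in the control libraries. The groups overlapped, and the control libraries lay on either side of both high-fiber libraries. Per kilobase of transcript this was 1.43 and 3.4 CPM in the high-fiber libraries and 0.0182 and 5.51 CPM in the control libraries. The log2 fold change was -0.05 ± 1.31 (SE). It was -1.26 without control library 1 and 6.78 without control library 2. With all 4 libraries it was 3.02 in limma-voom and 0.13 with a replicate block, so neither its sign nor its size was fixed.

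Ly6a and Ly6e belong to the Ly6 family, small proteins with a disulfide-stabilised three-finger fold. Ly6a is Sca-1, a marker of stem cells and of activated lymphocytes, and Ly6e is an interferon-inducible protein that restricts entry of some viruses. Ly6a (gene 110454, chr15:74994877-74998031) had 267.3 and 232.6 CPM in the high-fiber libraries and 354.0 and 380.5 CPM in the control libraries. Both high-fiber libraries were below both control libraries. Means were 249.9 ± 24.5 and 367.3 ± 18.7 CPM (SD, n = 2 each, high-fiber and control), with a log2 fold change of -0.55 ± 0.21 (SE).

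Ly6e (gene 17069, chr15:74955025-74959904) was the member with the most counts, 108044 and 72936 in the high-fiber libraries and 122546 and 87202 in the control libraries. In CPM these were 3742.5 and 3579.3 against 4057.6 and 4154.8. The groups did not overlap, but the separation was small, with a log2 fold change of -0.17 ± 0.21 (SE), less than 1 SE from 0.

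The Ly6 cluster on chromosome 15 has 14 genes in the table, of which 6 had no count in any library. Next to Ly6a, Ly6c1 (gene 17067), a marker of monocytes and T cell subsets, had 19.4 and 18.7 CPM in the high-fiber libraries and 46.6 and 46.7 CPM in the control libraries. It was lower in both high-fiber libraries, with a log2 fold change of -1.29 ± 0.33 (SE). This did not pass edgeR's quasi-likelihood test after Benjamini-Hochberg adjustment (adjusted p = 0.447), whereas DESeq2 called it (adjusted p = 0.0497), a call lost in DESeq2 when any 1 of the 4 libraries was left out (adjusted p 0.109 to 0.889). Ly6c1 shares 195 windows of 50 bases with Ly6a and 379 with Ly6c2, so the division of reads within the cluster is uncertain. Of the low members of the cluster, Ly6k had 17 and 11 counts in the high-fiber libraries and 0 in both control libraries. Against a floor of 3 counts over the control diet this was at least 9.7-fold higher, a bound that covers counting error and not the amplification. Ly6d had 0 and 34 counts in the high-fiber libraries and 1 and 9 in the control libraries.

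Thy1 and Cd48 belong to the immunoglobulin superfamily. Thy1 (CD90), a marker widely used to gate innate lymphocytes and T cells, had 29.7 and 30.3 CPM in the high-fiber libraries and 32.1 and 38.4 CPM in the control libraries (gene 21838, chr9:44043384-44048579). The groups did not overlap, but the gap between the nearest libraries, 30.3 and 32.1 CPM, was narrower than that between the control libraries. The log2 fold change was -0.22 ± 0.33 (SE).

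CD48 is a SLAM family ligand of CD2 and CD244. Cd48 (gene 12506, chr1:171681245-171705258) had 121.3 and 124.0 CPM in the high-fiber libraries and 92.1 and 84.0 CPM in the control libraries. Both high-fiber libraries were above both control libraries. Means were 122.7 ± 1.89 and 88.1 ± 5.74 CPM (SD, n = 2 each, high-fiber and control), with a log2 fold change of 0.48 ± 0.23 (SE), a fold of 1.39.

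The other SLAM family genes on chromosome 1 around Cd48, chosen after their values were seen, went in both directions. Of the 9 genes of the family, Cd48 included, 7 were tested and Slamf9 had no count, and none passed the edgeR test. Slamf6, a SLAM receptor of lymphocytes, had 296 and 193 counts in the high-fiber libraries and 0 in both control libraries. Against a floor of 3 counts over the control diet this was at least 169.4-fold higher, a bound that covers counting error and not the amplification. Slamf6 passed the filter on low counts through the high-fiber libraries alone, so no test of it is given. Cd84, another SLAM receptor, had 189.3 and 197.9 CPM in the high-fiber libraries and 85.0 and 155.6 CPM in the control libraries (log2 fold change 0.70 ± 0.32, edgeR adjusted p = 0.623). Both were higher in both high-fiber libraries, like Cd48.

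Ly9, a SLAM receptor, had 33.5 and 25.7 CPM in the high-fiber libraries and 62.2 and 50.2 CPM in the control libraries (log2 fold change -0.92 ± 0.32, edgeR adjusted p = 0.484). Slamf7 had 19 and 0 counts in the high-fiber libraries and 123 and 111 counts in the control libraries (log2 fold change -3.56 ± 1.15, edgeR adjusted p = 0.447). Both were lower in both high-fiber libraries. Slamf1 overlapped between the diets, at 8.73 and 18.6 CPM in the high-fiber libraries and 15.9 and 2.81 CPM in the control libraries, as did Slamf8. Cd244a, which encodes a receptor of CD48, had 71 counts in control library 1 and 0 in the other 3 libraries.

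Beside Cd52 on chromosome 4, Ubxn11, 7427 bases away, had 71.3 and 66.8 CPM in the high-fiber libraries and 37.0 and 24.2 CPM in the control libraries (log2 fold change 1.16 ± 0.32, edgeR adjusted p = 0.447). Crybg2, 1034 bases from Cd52, was low and overlapped between the diets, at 2.84 and 4.37 CPM against 0.762 and 3.0 CPM. Sh3bgrl3, 32333 bases away, had 1792.3 and 2157.2 CPM in the high-fiber libraries and 1353.6 and 1483.1 CPM in the control libraries (log2 fold change 0.48 ± 0.22, edgeR adjusted p = 0.613). The other tested genes within 100 kb, Dhdds and Cep85, overlapped between the diets. Of all genes tested, 18.5% were higher in both high-fiber libraries, like Ubxn11 and Sh3bgrl3.

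Nt5e is CD73, the ectoenzyme that turns extracellular AMP into adenosine, and CD55 is decay-accelerating factor, an inhibitor of complement convertases. Nt5e (gene 23959, chr9:88327609-88372089) had 362.2 and 235.7 CPM in the high-fiber libraries and 284.6 and 280.7 CPM in the control libraries. The control libraries were close together and lay between the high-fiber libraries, which differed by a factor of 1.54. The log2 fold change was 0.08 ± 0.26 (SE) and took both signs, from -0.24 without high-fiber library 1 to 0.36 in DESeq2 without high-fiber library 2.

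Cd55 (gene 13136, chr1:130429798-130465009) had 0 counts in all 4 libraries, as did its paralog Cd55b. Each count of 0 allows up to 3 counts, which is 0.104 and 0.147 CPM in the high-fiber libraries and 0.0993 and 0.143 CPM in the control libraries. Since 385 of 3441 windows of 50 bases in Cd55 are shared with other genes and 3056 are not, reads from the unshared part could have been assigned.

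Of the 7 members tested, 0 passed an edgeR adjusted p under 0.05, a threshold passed by 0.0338% of all genes tested. At an unadjusted p under 0.05, Cd52 was higher and Ly6a lower, and of all genes 4.7% were higher and 4.1% lower, 8.8% in all. DESeq2 at an adjusted p under 0.05 called Cd52 higher. Of the 12434 genes given an adjusted p by DESeq2, a set other than the genes tested in edgeR, it called 1.28% higher and 0.635% lower, 1.91% in all. Of the 7, the high-fiber and control libraries did not overlap in 5, with 2 higher (Cd52 and Cd48) and 3 lower (Ly6a, Ly6e and Thy1) on the high-fiber diet, beside 18.5% of all genes higher and 19.6% lower, 38.2% in either direction. Of the 7, 3 log2 fold changes were positive and 4 negative, beside 48.8% and 51.2% of all genes, and their median was -0.05 (0.07 without control library 2, -0.18 without control library 1), beside -0.0164 over all genes tested. These counts use the contrast that chose the members, and nothing is read from them.

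**Figure D2:**
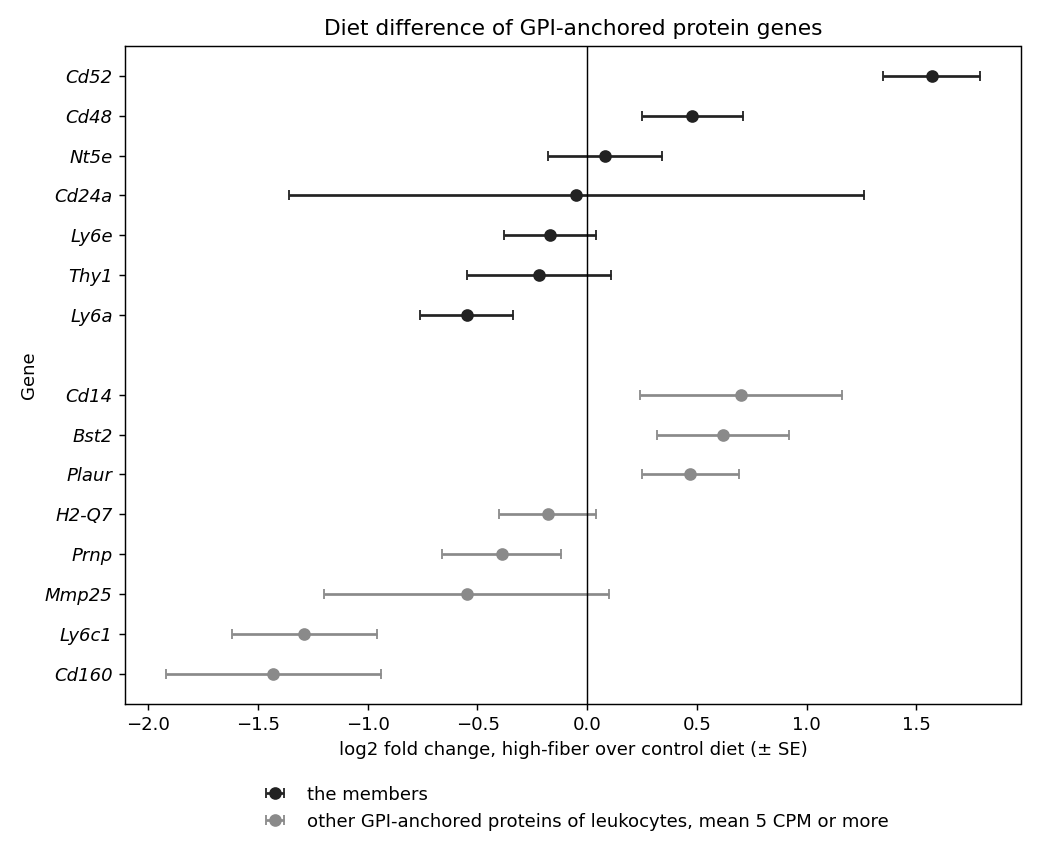
Log2 fold change, high-fiber over control diet, with its SE, for the 7 members tested (black) and for other GPI-anchored proteins of leukocytes at a mean of 5 CPM or more (grey). Cd52, at 1.57, is the rightmost of the genes drawn, Cd160 (-1.43) and Ly6c1 (-1.29) are the leftmost, and most others lie within 1 unit of 0.

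Other GPI-anchored proteins were compared through lists chosen for their role. Of 31 further GPI-anchored proteins of leukocytes, 15 were tested and 11 had no count in any library. None passed the edgeR test at an adjusted p under 0.05, and at an unadjusted p under 0.05, 1 was higher and 3 were lower, beside 4.7% and 4.1% of all genes. The 1 higher was Ly6k, which passed the filter on low counts through the high-fiber libraries alone, so nothing is read from its p. The list's median log2 fold change was 0.47, but it turned negative with a filter of 5 CPM (-0.27) and when single libraries were left out. It was -0.05 without control library 1, -0.21 without high-fiber library 1 and -0.08 without high-fiber library 2, so it gives no direction for the list. Cd160, a receptor of cytotoxic and innate lymphocytes, had 15.9 and 12.1 CPM in the high-fiber libraries and 50.4 and 24.7 CPM in the control libraries (log2 fold change -1.43 ± 0.49, edgeR adjusted p = 0.465). Hyal2, a hyaluronidase, had 48 and 0 counts in the high-fiber libraries and 185 and 101 in the control libraries. Both genes were lower in both high-fiber libraries.

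Of 51 GPI-anchored proteins best known from other tissues, 4 were tested and 33 had no count in any library. Cpm, a membrane carboxypeptidase, had 223.5 and 154.6 CPM in the high-fiber libraries and 97.1 and 91.7 CPM in the control libraries. Its log2 fold change was 1.01 ± 0.27, which did not pass edgeR (adjusted p = 0.447) and passed DESeq2 (adjusted p = 0.0405), though not without control library 1 (0.504), control library 2 (0.646) or high-fiber library 1 (0.168). Rtn4rl1, a Nogo receptor relative, had 12.3 and 3.93 CPM in the high-fiber libraries and 27.3 and 19.6 CPM in the control libraries (log2 fold change -1.46 ± 0.59, edgeR adjusted p = 0.545). The remaining pair, Mmp17 and Cntn1, overlapped between the diets.

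The machinery that makes the anchor was expressed on both diets, and none of its genes passed the edgeR test. Of 21 listed genes of anchor synthesis, 20 were in the table and all 20 were tested. At an unadjusted p under 0.05 there were 0, and the median log2 fold change was -0.18, with 8 positive and 12 negative, or 0.03 without high-fiber library 2 and -0.01 without control library 2. Pigp, a subunit of the enzyme of the first step, had 22.5 and 36.9 CPM in the high-fiber libraries and 14.2 and 16.8 CPM in the control libraries (log2 fold change 0.93 ± 0.44, edgeR adjusted p = 0.642). Pigc, a subunit of the same enzyme, had 20.6 and 30.7 CPM in the high-fiber libraries and 32.1 and 49.9 CPM in the control libraries (log2 fold change -0.68 ± 0.40). The summed level of the list was 798.4 and 781.5 CPM in the high-fiber libraries and 736.4 and 712.8 CPM in the control libraries.

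All 5 subunits of the GPI transamidase were tested and their libraries overlapped between the diets, where 38.2% of all genes tested did not. Their median log2 fold change was 0.03 (-0.29 without high-fiber library 1, 0.18 without high-fiber library 2, 0.52 without control library 2, 0.01 without control library 1). Pigk, the catalytic subunit, had 56.8 and 140.6 CPM in the high-fiber libraries and 61.8 and 72.7 CPM in the control libraries. Of 9 genes that remodel the anchor or carry anchored proteins out of the endoplasmic reticulum, 8 were tested and Pgap4 had no count. In 3 of the 8 the high-fiber libraries were above the control libraries and in 3 below, beside 18.5% and 19.6% of all genes tested. The list's median log2 fold change was -0.25, and it was -0.51 without high-fiber library 1, 0.21 without high-fiber library 2 and 0.06 without control library 2. Tmed5, a cargo receptor of this transport step, had 255.2 and 321.7 CPM in the high-fiber libraries and 204.2 and 192.7 CPM in the control libraries (log2 fold change 0.54 ± 0.22, edgeR adjusted p = 0.567). Pgap2, a lipid remodelling protein, had 14.2 and 6.63 CPM in the high-fiber libraries and 24.7 and 24.5 CPM in the control libraries (log2 fold change -1.18 ± 0.50, edgeR adjusted p = 0.573). The 3 tested genes of anchor release, Pgap6, Gpld1 and Gdpd5, were low on both diets and had a median log2 fold change of -0.76, which was -3.25 without high-fiber library 1 and -0.21 without high-fiber library 2.

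**Figure D3:**
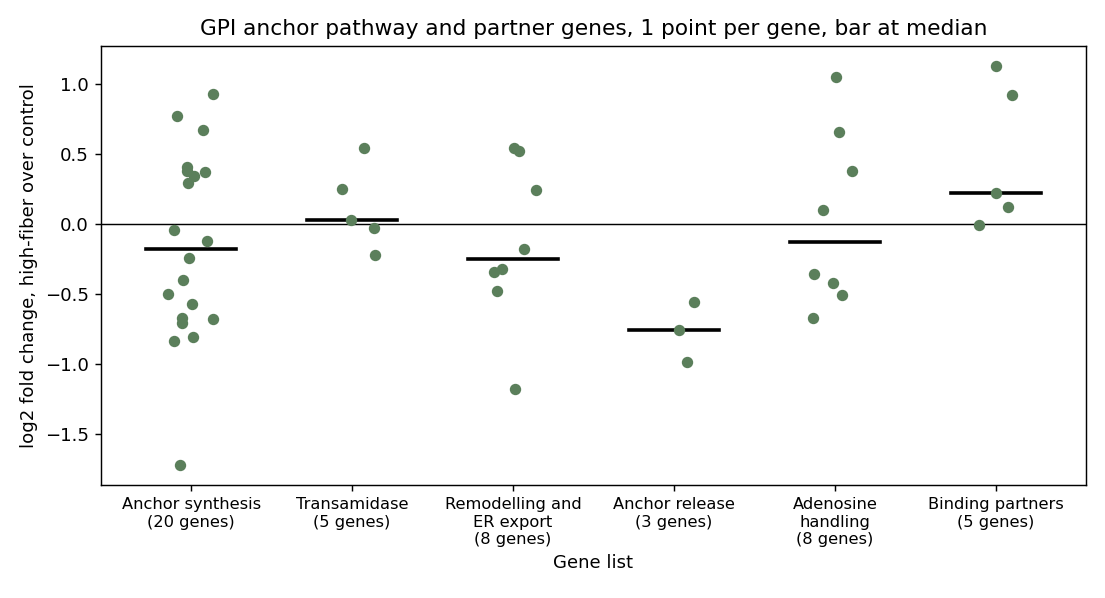
Log2 fold change, high-fiber over control diet, of each tested gene in lists of anchor synthesis, transamidase, remodelling, anchor release, adenosine handling and binding partners, with a bar at each list's median. Every list but anchor release, which has 3 tested genes, spreads over both sides of 0, and the medians with all libraries lie between -0.76 and 0.22; except for anchor release, the sign of each turned when some library was left out.

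Genes that act beside the members were described in the same way. Of 13 genes of extracellular adenosine handling, the pathway of CD73, 8 were tested, and their median log2 fold change was -0.13, or 0.30 without control library 1, 0.19 without high-fiber library 2 and -0.22 without high-fiber library 1. Slc29a1, a nucleoside transporter, had 97.0 and 95.0 CPM in the high-fiber libraries and 61.0 and 60.1 CPM in the control libraries (log2 fold change 0.66 ± 0.24, edgeR adjusted p = 0.499). Ada, adenosine deaminase, had 103.8 and 77.4 CPM in the high-fiber libraries and 120.5 and 122.7 CPM in the control libraries (log2 fold change -0.42 ± 0.25). The binding partners of the members, 5 of 9 tested, all overlapped between the diets, where 38.2% of all genes tested did not. Their median log2 fold change was 0.22 (-0.05 without high-fiber library 2, 0.38 without high-fiber library 1). Among them was Cd2, the receptor of CD48, at 5.2 and 3.44 CPM in the high-fiber libraries and 0.497 and 4.91 CPM in the control libraries. Of the 5 complement regulators only Cr1l, a membrane regulator related to CR1, was tested, at 99.0 and 122.5 CPM against 97.6 and 121.6 CPM.

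GPI-anchored proteins gather with Src-family kinases and adaptors in membrane rafts. Of 13 such genes, 12 were tested and none passed edgeR. Their median log2 fold change was -0.36, or -0.59 without high-fiber library 1, -0.2 with the 5 CPM filter and -0.21 in DESeq2. Lat2, a raft adaptor, had 105.0 and 155.4 CPM in the high-fiber libraries and 53.9 and 51.2 CPM in the control libraries (log2 fold change 1.30 ± 0.29), with an edgeR adjusted p of 0.447 and a DESeq2 adjusted p of 0.00802. DESeq2 no longer called it without control library 1 (adjusted p = 0.233), control library 2 (0.328) or high-fiber library 2 (0.231). Lyn, a Src-family kinase, had 172.3 and 153.5 CPM in the high-fiber libraries and 103.0 and 97.7 CPM in the control libraries (log2 fold change 0.70 ± 0.23, edgeR adjusted p = 0.456). Lck, the kinase that binds CD4 and CD8, had 82.5 and 90.8 CPM in the high-fiber libraries and 103.3 and 185.8 CPM in the control libraries.

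Because Ly6a and Ly6e are interferon-inducible, 17 interferon response genes were read beside them, of which 14 were tested. None passed edgeR, and the median log2 fold change was -0.11, or 0.08 without control library 1, -0.18 without control library 2, -0.04 without high-fiber library 1 and 0 without high-fiber library 2. Ifit2, an interferon-induced protein, had 0 counts in both high-fiber libraries and 73 and 116 counts in the control libraries. Against a floor of 3 counts over the high-fiber diet this was at least 60.6-fold lower, a bound that covers counting error and not the amplification. Ifit2 had an edgeR adjusted p of 0.447 and a DESeq2 adjusted p of 0.0053. It passed the filter through the control libraries alone, and DESeq2 no longer called it without control library 1 (adjusted p = 0.078) or control library 2 (0.724). Stat2, a signal transducer of the interferon receptor, had 27.8 and 16.6 CPM in the high-fiber libraries and 11.9 and 3.48 CPM in the control libraries, opposite in direction to Ifit2 (log2 fold change 1.46 ± 0.63, edgeR adjusted p = 0.593). Bst2, itself GPI-anchored and interferon-induced, had 49.0 and 51.6 CPM in the high-fiber libraries and 32.3 and 33.3 CPM in the control libraries (log2 fold change 0.62 ± 0.30).

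The genes whose pattern over the 4 libraries was most like that of Cd52 were found among 8895 other genes at a mean of 5 CPM or more, by the mean absolute difference of log2 CPM centred on each gene's own mean. Rac1, a small GTPase of the cytoskeleton, was nearest at 0.061, with 333.7 and 342.6 CPM in the high-fiber libraries and 141.4 and 104.5 CPM in the control libraries. Dipk2a followed at 0.09, then Ctla2b, Slc25a24 and Tyms, each at 0.11. Tyms, thymidylate synthase, had 49.0 and 52.6 CPM in the high-fiber libraries and 21.3 and 13.0 CPM in the control libraries. With 4 libraries this measure describes likeness of values and no more.

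Markers of other cell types were read beside Cd52, which many lymphocytes and monocytes express. All 6 tested markers of B and plasma cells, of 10 listed, were higher in both high-fiber libraries, beside 18.5% of all genes tested. Of these, 1 passed the filter on low counts through the high-fiber libraries alone. Its direction was thereby fixed, so nothing is read from it, though it also enters the median. The median log2 fold change of the 6 was 3.08, or 5.81 without control library 1 and 1.93 without high-fiber library 2. Summed levels of the list were 343.0 and 1229.7 CPM in the high-fiber libraries and 155.9 and 39.2 CPM in the control libraries. In the high-fiber libraries most of that sum was immunoglobulin and joining chain transcripts, such as Igkc at 111.8 and 457.5 CPM in the high-fiber libraries and 37.4 and 4.15 CPM in the control libraries. Of the B cell genes of the list, Pax5 was at 0 in all 4 libraries, Ms4a1 had 1 and 0 counts in the high-fiber libraries and 2 and 1 in the control libraries, and Cd22 had 3 and 5 against 1 and 1. Cd79b, a chain of the B cell receptor complex, had 39.4 and 57.5 CPM in the high-fiber libraries and 24.0 and 27.5 CPM in the control libraries (log2 fold change 0.91 ± 0.35), and its partner chain Cd79a had 34 and 22 counts against 17 and 1 (log2 fold change 1.68 ± 1.07). Cd52, like the 6 tested markers of this list, was higher in both high-fiber libraries. The part of these markers in the Cd52 difference was not tested.

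Of 12 T cell markers 8 were tested, with summed levels of 1384.2 and 1307.7 CPM in the high-fiber libraries and 1238.9 and 1411.1 CPM in the control libraries, and Cd8a, Cd8b1 and Cd5 had no count in any library. These sums overlapped between the diets and were mostly Trbc1, Cd28, Cd3g and Trbc2, but single markers differed in opposite directions. Cd3g was higher in both high-fiber libraries, at 244.4 and 289.0 CPM against 142.6 and 170.6 CPM in the control libraries (log2 fold change 0.77 ± 0.23). Themis, a T cell signalling protein, was lower, with 52 and 43 counts against 363 and 334 counts (log2 fold change -2.83 ± 0.71), as was Cd3e, at 1.21 and 5.3 CPM against 5.79 and 13.2 CPM. None passed edgeR, and DESeq2 called Themis with all 4 libraries (adjusted p = 0.00967) but not with any 1 left out. Markers of macrophages, monocytes and dendritic cells, 9 of 10 tested, summed to 422.7 and 485.8 CPM in the high-fiber libraries and 319.7 and 549.9 CPM in the control libraries. Of the 9, 1 was higher in both high-fiber libraries and 1 lower, beside 18.5% and 19.6% of all genes tested, and none passed edgeR. The higher was Apoe, at 202.0 and 191.9 CPM against 85.2 and 153.9 CPM. The lower was Ccr2, at 94.2 and 118.1 CPM against 176.4 and 257.5 CPM. Of the epithelial markers 6 of 10 had no count in any library, and the list summed to 31.9 and 42.4 CPM in the high-fiber libraries and 38.3 and 31.0 CPM in the control libraries. Epcam alone made up 25.8 and 36.9 CPM against 25.1 and 27.3 CPM of the epithelial sums. Stromal and endothelial markers summed to 64.5 and 42.8 CPM against 44.9 and 44.5 CPM, nearly all of it Pecam1, at 62.8 and 41.9 CPM against 42.6 and 42.4 CPM. Granulocyte and mast cell markers summed to at most 1.96 CPM in any library. The part of these markers in the members' values was not tested.

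**Figure D4:**
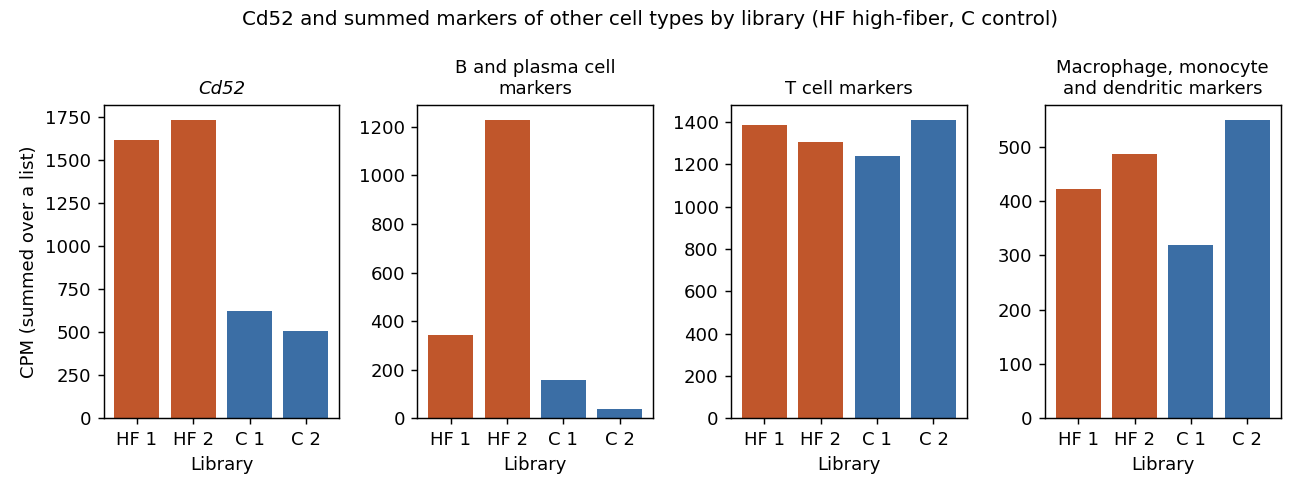
Cd52 and the summed levels of 3 marker lists in CPM, 1 bar per library (linear axes from 0, each panel on its own scale), high-fiber left of control. The Cd52 bars stand at 1616.3 and 1736.5 CPM for the high-fiber libraries and at 621.4 and 506.5 CPM for the control libraries. In the same order, the B and plasma cell bars stand at 343.0, 1229.7, 155.9 and 39.2 CPM. The T cell bars of the diets overlap.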

How the data were processed

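Bulk RNA of ILC2s sorted from 4 mouse colons was sequenced, 1 mouse per library. The authors deposited whole-number read counts per NCBI gene identifier, not normalized. The submitters' processing notes name CASAVA 1.8.2, STAR 2.3.0 and the mm10 build without roles. How reads were counted, and whether strand was used, is not stated, so near copies and overlapping genes may share reads. Symbols came from the RefSeq annotation of GRCm38.p6 (25275 of 27179 identifiers matched), and transcripts and lengths from GENCODE M21 on GRCm38. The members and lists were chosen with earlier results of these data known.

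The deposited counts were tested in R 4.3.3 with edgeR 4.0.16 (filterByExpr, TMM scaling, diet as the only term, estimateDisp, glmQLFit with legacy=FALSE and robust off, glmQLFTest, Benjamini-Hochberg over 11841 genes). The setting legacy=FALSE was used although legacy=TRUE, the default of this version, was known to call 0 genes. Residual degrees of freedom were 2 and the common biological coefficient of variation 0.607. CPM used TMM-scaled library sizes, each SE was derived from the F statistic and the fold change, and list sums are sums of CPM. A count of 0 allows up to 3 counts. This covers counting error alone, because amplified copies of 1 molecule are counted apart.

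Named were the 8 members, from each other list up to 4 genes (those called first, then by smallest p) and the 5 genes nearest to Cd52 in pattern. Not every gene so named is described. Neighbours within 100 kb, SLAM and Ly6 family genes and further markers were chosen after their values were seen. Other settings tried were 3 scalings (RLE, upper quartile, none), 2 low-count filters (none, and 5 CPM in 2 libraries), DESeq2 1.42.0, limma-voom with limma 3.58.1, the older legacy=TRUE fit, robust dispersions, a block on replicate number, an adjusted p of 0.1 and each library left out. DESeq2 without each library and with a block was added after seeing the data. A gene of the B and plasma cell list counts in its sums but is not reported here by itself.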

Additional observations from a re-analysis of the deposited data

How the results depend on the processing

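Of all genes, 4 were called higher and 0 lower. The number higher was 0 without a low-count filter, in limma-voom, with legacy=TRUE and with the replicate block, 8 with the 5 CPM filter (1 lower), 159 in DESeq2 (79 lower) and 174 in DESeq2 with the replicate block (84 lower). In edgeR with 1 library left out it was 0 to 1 higher and 0 lower. DESeq2 called 136 higher and 15 lower without control library 1, 98 and 11 without control library 2, 217 and 538 without high-fiber library 1, and 106 and 85 without high-fiber library 2. Of the members, 0 were called under every edgeR and limma-voom setting run, and DESeq2 called 1, Cd52, with all libraries, with the block and without each library. Cd52 was chosen on this contrast, so these repeats are no sign of stability. Of the list genes, marker lists left out, 0 were called in either direction. DESeq2 called 2 higher and 2 lower, with the block 2 and 1, 4 and 8 without high-fiber library 1, 1 and 3 without high-fiber library 2, and 0 and 0 without control library 1 and also without control library 2. Of the marker genes DESeq2 with all libraries also called Kit higher and Themis lower. The call of Kit was lost without control library 1, control library 2 or high-fiber library 1. Its DESeq2 log2 fold change was 0.68 without high-fiber library 1 and 1.46 without high-fiber library 2. The causes were not tested.

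Whether the replicate numbers pair the libraries was not known, so the block is only an alternative. Deviations of same-numbered libraries correlated at 0.041 across genes. With 2 libraries per diet this is a single value, which cannot decide the question. Library 1 had a larger total than library 2 on both diets. Over 20 other settings the log2 fold change lay between 1.43 and 1.74 for Cd52, 0.41 and 0.56 for Cd48, -0.63 and -0.45 for Ly6a, -0.21 and -0.13 for Ly6e, and -0.35 and -0.08 for Thy1. Cd24a, at -0.05, kept its sign in 13 of the 20 and was 3.02 in limma-voom, 0.13 with the replicate block and 2.41 in DESeq2 with the replicate block. Nt5e kept its sign in 18 of the 20. Among the 20, the adjusted p of 0.1 reuses the main fit, so its fold changes could not differ. Robust dispersions also left the members' fold changes as they were, so these counts of kept signs include agreement fixed in advance. Signs also turned for Cr1l with no scaling factors (-0.03), for Pigu in limma-voom (0.09) and with the replicate block (0.02), and for Selp in limma-voom (-0.19). With 1 library left out, the lowest and highest values were -0.15 and 0.19 for Cr1l, -0.47 and 0.52 for Pigu, -1.92 and 2.28 for Selp, -0.29 and 0.62 for Gpaa1, -0.99 and 0.18 for Pigt, -0.15 and 3.14 for Cd2, -2.82 and 0.1 for Pigg, -3.25 and 0.17 for Gdpd5, -0.2 and 0.57 for Itgav, -0.26 and 2.24 for Slamf1, -0.19 and 9.65 for Slamf8, -0.3 and 0.6 for Adgre5, -6.32 and 7.72 for Mmp17, -1.68 and 0.22 for Cntn1, and -0.24 and 1.1 for Pigk. The ranges of these other genes with 1 library left out are from edgeR alone, whereas the members' ranges above also cover DESeq2. Leaving out 1 of 2 mice leaves a lone library that is assumed to vary like the others.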
